A study of Mus musculus with 10 samples.

Results

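The brush border is the carpet of microvilli on the apical surface of enterocytes, the absorptive cells of the intestine. Each microvillus is held up by a bundle of parallel actin filaments, which villin, fimbrin and espin cross-link and which ezrin and a membrane-bound myosin tie to the overlying membrane. Neighbouring microvilli are joined at their tips by a pair of protocadherins, whose tails are anchored by a complex of a scaffold, an adaptor and a motor. Microvilli are sparse on the dividing cells of the crypt and are built as cells leave it for the villus, and this adhesion complex is known to pack them in their regular array.

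The 10 genes described here, out of 54838 genes listed in the files, encode those parts. They were chosen by name for what their proteins do, with earlier results of these data known. They are the bundlers Vil1 (villin), Pls1 (plastin 1, the intestinal fimbrin) and Espn (espin), the linker Ezr (ezrin), the motor Myo1a (brush border myosin 1a), and the adhesion complex of Cdhr2 and Cdhr5 (the protocadherins), Ush1c (harmonin, the scaffold), Anks4b (its adaptor) and Myo7b (its motor). All 10 passed the filter on low counts that left 14719 genes for testing.

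Crypts of the jejunum from 5 WT mice and from 5 Arid3a conditional knockout (cKO) mice, VillinCre-ERT2+/-; Arid3a fl/fl, were profiled by RNA-seq, with 1 library per animal. Both genotypes received tamoxifen on 3 consecutive days, which activates the Cre recombinase and so deletes the floxed alleles in cKO mice, and were culled 1 month after the first injection. Whether the WT mice carried the Cre transgene or floxed alleles, and the age and sex of the animals, were not given in the sources used here. The Cre is driven by the villin promoter, the promoter of Vil1 itself. Deletion is thus directed to the intestinal epithelium as a whole and not to enterocytes alone. The names of the WT and cKO animals come from separate series. What these series stand for was not given, and a difference between them cannot be told apart from genotype.

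Arid3a encodes an AT-rich interaction domain transcription factor and was low in these crypts. It stood at 1.91, 2.07, 2.75, 2.68 and 2.69 CPM, the count scaled to a common library size, in WT replicates 1 to 5 and at 0.303, 0.516, 0.49, 0.884 and 1.17 CPM in the cKO replicates. Every cKO library lay below every WT library, with a log2 fold change of -1.84 (SE 0.32, edgeR adjusted p = 0.00204). These values count reads over the whole gene, whichever exons are deleted. Libraries held between 27050455 and 31053622 counts, and every cKO total was above every WT total. The 5 epithelial markers summed to 3049 to 3568 TPM, the unit scaled for transcript length, in all libraries and none of the 5 passed the test, whereas smooth muscle markers summed to at most 3.96 TPM. The villi had been scraped off before the crypts were released, but all 8 enterocyte markers were present, and their sum ranged from 2012 TPM in WT replicate 4 to 9383 TPM in WT replicate 2 and from 9554 to 18171 TPM in cKO animals.

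Promoter sequence is shown for 3 members. Anks4b and Cdhr2 were the members whose windows held the HNF4 or HNF1 letters defined below, and the promoter of Vil1 also drives the Cre. RefSeq windows of GRCm38.p6, from 250 bases before to 50 bases after a start site, matched 9 of the 10 genes, with 3 windows for Espn and 1 for each of the others. They were searched on both strands for 5 short motifs: CAAAGTNCA for the HNF4 factors, GTTAAT for the HNF1 factors (a half-site of their palindrome), TTTATNG for the CDX factors, ATTAAA for ARID3A and TATAAA for the TATA box. The 250 bases before the start site on the plus strand of chr7:120173608-120173857 (Anks4b), chr13:54701213-54701462 (Cdhr2) and chr1:74409134-74409383 (Vil1) are given below, 5′ to 3′, with the bases that matched a motif in capitals.
Anks4b: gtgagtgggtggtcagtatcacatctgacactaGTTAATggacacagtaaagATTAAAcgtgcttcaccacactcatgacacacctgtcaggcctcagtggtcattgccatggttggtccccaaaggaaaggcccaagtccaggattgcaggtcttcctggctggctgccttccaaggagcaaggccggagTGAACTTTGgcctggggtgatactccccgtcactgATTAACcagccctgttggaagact
Cdhr2: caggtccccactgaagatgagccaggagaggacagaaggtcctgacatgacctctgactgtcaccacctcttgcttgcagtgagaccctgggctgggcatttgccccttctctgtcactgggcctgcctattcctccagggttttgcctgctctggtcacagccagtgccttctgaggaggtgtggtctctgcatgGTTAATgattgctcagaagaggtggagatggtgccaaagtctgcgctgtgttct
Vil1: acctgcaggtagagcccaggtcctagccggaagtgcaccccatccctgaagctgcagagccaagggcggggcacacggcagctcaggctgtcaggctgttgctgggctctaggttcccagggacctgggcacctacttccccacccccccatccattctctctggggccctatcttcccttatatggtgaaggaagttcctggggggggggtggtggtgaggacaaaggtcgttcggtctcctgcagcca
The Anks4b window held the HNF4 letters starting at position -59, the HNF1 letters at -217 and -24 and the ARID3A letters at -198, and the Cdhr2 window held the HNF1 letters at -54. A CDX match at -197 in 1 of the Espn windows was the remaining match among the 9 genes, and no matches overlapped. Of 32851 promoter windows in the table, 1.41% held the HNF4 letters, 7.1% the HNF1 letters, 10.9% the CDX letters, 13.9% the ARID3A letters and 13.6% the TATA letters. The Vil1 window shown above held none of these letters. A match to so few letters is a description of the sequence and not a binding site.

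In cKO crypts all 10 brush border genes were expressed more highly than in WT crypts, by between 1.28-fold (Ush1c) and 2.55-fold (Cdhr2). The median log2 fold change of the 10 genes was 0.79, against -0.03 over all genes tested. By edgeR's quasi-likelihood test at an adjusted p below 0.05, 28.3% of all genes tested differed between the genotypes, with 15.6% of genes higher and 12.7% lower in cKO. For 9 of the 10 genes every cKO library lay above every WT library in CPM, which held for 12.0% of all genes tested. In TPM it held for 8 of the 10, a scale for which no share over all genes is given here.

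**Figure D1:**
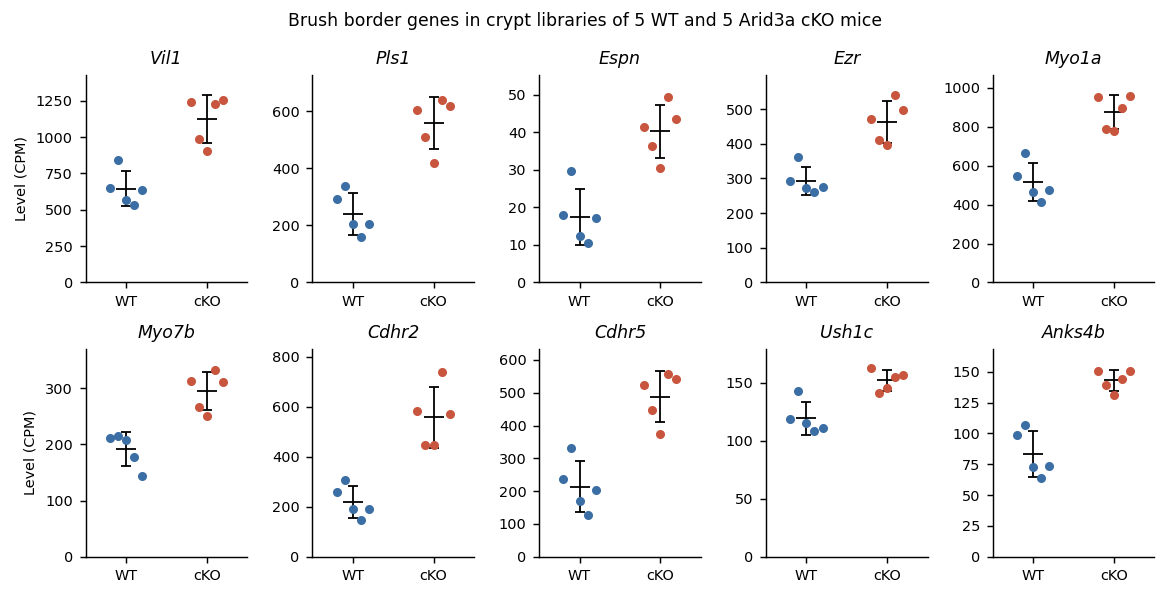
Level of each of the 10 genes in CPM on TMM-normalized library sizes (linear axes from 0), with 1 point per animal for 5 WT (blue) and 5 cKO (red) mice and the mean with SD in black. The groups are apart for 9 genes, and for Ush1c the cKO replicate at 141 CPM lies below the WT replicate at 143 CPM.

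Vil1 (chr1:74409376-74435559, plus strand, GRCm38) encodes villin, which bundles actin and, at high calcium, severs it. It stood at 653, 840.1, 568, 536 and 634 CPM in WT replicates 1 to 5 and at 1239, 988, 902, 1227 and 1253 CPM in cKO replicates 1 to 5. The highest WT library, replicate 2, and the lowest cKO library, replicate 3, came close to each other but did not overlap. The mean rose from 646 ± 118 CPM to 1122 ± 164 CPM (SD over 5 animals), and the log2 fold change was 0.80 (SE 0.13, edgeR adjusted p = 0.00182). Exons of Usp37, on the opposite strand, overlap those of Vil1, and the level of Usp37 was 51.8 CPM in WT animals and 62.6 CPM in cKO animals.

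Pls1 (chr9:95752642-95845311, minus strand) encodes the fimbrin that packs the actin filaments of the microvillus core. Its level was 291, 337, 204, 160.4 and 206 CPM in the WT animals and 605, 511, 419, 638 and 617 CPM in the cKO animals. The groups were well apart, and the log2 fold change was 1.22 (SE 0.20, edgeR adjusted p = 0.00206). Espn (chr4:152120331-152152371, minus strand), the third bundler, was the least abundant of the 10 genes, at 17.9, 29.7, 12.3, 10.5 and 17.1 CPM in WT and 41.4, 36.4, 30.4, 49.3 and 43.5 CPM in cKO. WT replicate 2 at 29.7 CPM lay just under cKO replicate 3 at 30.4 CPM, with a log2 fold change of 1.20 (SE 0.26, edgeR adjusted p = 0.00874). In TPM the ranges of Espn overlapped, from 7.56 to 22.2 in WT and from 21.6 to 37.8 in cKO.

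Ezr (chr17:6738041-6782784, minus strand), which ties the actin core to the plasma membrane, stood at 292, 363, 273, 261 and 274 CPM in WT and 471, 411, 397, 541 and 499 CPM in cKO. Apart from replicate 2 the WT animals were tightly grouped, and the log2 fold change was 0.66 (SE 0.11, edgeR adjusted p = 0.0017). Sytl3, whose exons overlap those of Ezr on the opposite strand, had 2.54 CPM in WT animals against 4.44 CPM in cKO animals. Myo1a (chr10:127705170-127720940, plus strand) encodes the motor that bridges the core and the membrane along the length of the microvillus. It was measured at 546, 667, 466, 414 and 477 CPM in WT and 954, 791, 781, 896 and 959 CPM in cKO. The groups did not overlap, and the log2 fold change was 0.77 (SE 0.12, edgeR adjusted p = 0.00149).

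Both protocadherins of the tip links were strongly higher in cKO, Cdhr2 by 2.55-fold and Cdhr5 by 2.28-fold. Cdhr2 (chr13:54701461-54736662, plus strand) stood at 259, 305, 193, 147 and 190.3 CPM in WT and 582, 445, 448, 740.3 and 571 CPM in cKO. Its mean rose from 219 ± 62.5 to 557 ± 121 CPM (SD over 5 animals), with a log2 fold change of 1.35 (SE 0.21, edgeR adjusted p = 0.00165). The cKO libraries were uneven, with replicate 4 above the rest and replicates 2 and 3 lowest. Cdhr5 (chr7:141269083-141276786, minus strand), to which Cdhr2 binds across the gap between microvilli, stood at 237, 331, 170.5, 128 and 204 CPM in WT and 524, 448, 373, 556 and 541 CPM in cKO. WT replicate 2 was again nearest to cKO replicate 3, and the log2 fold change was 1.19 (SE 0.23, edgeR adjusted p = 0.00492).

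Within the cell, Anks4b (chr7:120173858-120185586, plus strand), the adaptor of the complex and the gene with the HNF4 and HNF1 letters in the window printed above, stood at 98.6, 107, 73.1, 63.8 and 73.9 CPM in WT and 151, 139, 131, 144 and 151 CPM in cKO. The cKO animals differed little from each other, and the log2 fold change was 0.78 (SE 0.13, edgeR adjusted p = 0.00183). Myo7b (chr18:31959234-32036961, minus strand), the motor that carries the complex to the tips, stood at 211, 215, 208, 178 and 144 CPM in WT and 313, 267, 250.3, 333 and 311 CPM in cKO. The groups were apart, here with replicate 5 and not replicate 4 as the lowest WT library, and the log2 fold change was 0.63 (SE 0.12, edgeR adjusted p = 0.00314).

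Ush1c (chr7:46195350-46238503, minus strand), the PDZ scaffold harmonin that holds the protocadherin tails and Anks4b, changed least. It stood at 119, 143, 115, 108 and 111 CPM in WT and at 163, 141, 145, 155 and 157 CPM in cKO. WT replicate 2 lay above cKO replicate 2, so that the groups overlapped by this pair alone. The means were 119 ± 14.1 and 152 ± 8.98 CPM (SD over 5 animals), which gave a log2 fold change of 0.35 (SE 0.08, edgeR adjusted p = 0.00823). Without WT replicates 3 and 4, an alternative chosen after seeing the data, its log2 fold change was 0.29 and it no longer passed (edgeR adjusted p = 0.0564), while the other 9 genes still did. In 6 libraries reads of Ush1c had been divided with another gene by the authors' counting, and Gm9860, on the opposite strand with overlapping exons, had 4.31 CPM in WT animals against 3.18 CPM in cKO animals.

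Animals of a genotype kept much the same order from gene to gene. WT replicate 2 was the highest WT library for all 10 genes, WT replicate 1 was among the 2 highest for all 10, and WT replicate 4 was the lowest for 9. Among cKO animals, replicate 3 was the lowest for 8 genes and replicate 2 for the other 2, whereas replicate 4 was the highest for 6. Summed over the 10 genes, the level was 1216, 1405, 1001, 949 and 956 TPM in WT replicates 1 to 5 and 2081, 1670.4, 1550.0, 2294 and 2049 TPM in cKO replicates 1 to 5. The sum of the 10 genes was thus 1.75 times higher in cKO, and the spread of the WT animals around their mean of 1105 TPM (SD 199.7, n = 5) did not reach the cKO range.

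Enterocyte markers moved with the brush border genes, both between the genotypes and among animals. All 8 markers, among them Alpi, Fabp1, Fabp2, Apoa1, Apoa4, Sis and Rbp2, were higher in cKO, and their sum was 6080.1, 9383, 2939, 2012 and 4815 TPM in WT replicates 1 to 5 and 14283, 13360.5, 9554, 18171 and 17843 TPM in cKO replicates 1 to 5, 2.9 times higher. The calls of Fabp1 (without any of 8 animals), Apoa1 and Rbp2 (any of 7 each) and Fabp2 and Apoa4 (without cKO replicate 5) were lost on leaving out 1 animal. WT replicate 2 was thus the highest and replicate 4 the lowest WT library for these markers as well, and cKO replicate 3 the lowest and replicate 4 the highest cKO library. In these bulk libraries more cells of a type and more RNA per cell cannot be told apart, and the part of the enterocyte markers in the rise of the brush border genes was not tested.

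Set against the enterocyte markers, the 10 brush border genes amounted to 27.2 ± 13.2% of the marker sum in WT and 13.5 ± 1.9% in cKO (SD, n = 5 each). The WT range of 15 to 47.2% overlapped the cKO range of 11.5 to 16.2%, and the highest share was that of WT replicate 4. Against the epithelial markers (Epcam, Cdh1, Cldn3, Cldn7 and Krt8) their share rose from 33.3 ± 5.74% to 59.1 ± 8.71%, with every cKO library above every WT library. These shares are descriptions without a test.

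**Figure D2:**
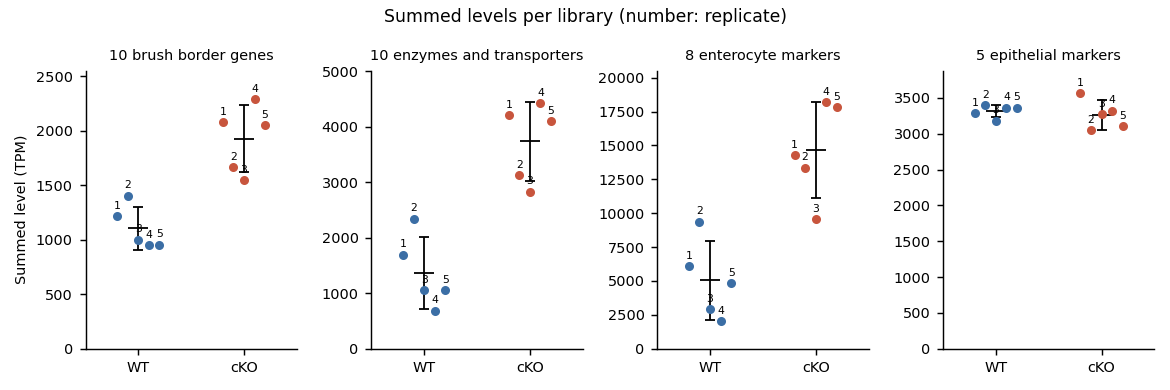
Summed level in TPM per library (linear axes from 0) of the 10 brush border genes, of 10 digestive enzymes and transporters of the brush border, of 8 enterocyte markers and of 5 epithelial markers, with the replicate number beside each point and the mean with SD in black. The first 3 sums are higher in every cKO library than in every WT library, with ratios of 1.75, 2.74 and 2.9, while the epithelial sum overlaps.

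Markers of other cells of the crypt moved in other ways. Of the 5 Paneth cell markers, 4 were lower in cKO, and their sum ranged from 31025 to 46914 TPM in WT and from 18958 to 26815 TPM in cKO. Of the 5 stem and proliferating cell markers, Olfm4 and Ascl2 were lower, with calls lost on leaving out any of 5 and any of 6 animals, and the sum ranged from 2372 to 4242 TPM in WT and from 1737 to 2755 TPM in cKO. None of the 5 goblet cell markers passed the test. Tuft cells, which bear a tall tuft of microvilli of their own and also contain villin, had 4 of 7 markers higher, among them Dclk1, Trpm5 and Sh2d6, whose calls were lost on leaving out any of 6, any of 4 and 1 animal, with sums of 50.1 to 62.5 TPM in WT and 57.7 to 70.8 TPM in cKO. Enteroendocrine markers Chga and Chgb were higher, Chga with a call lost on leaving out any of 8 animals, with sums over the 5 markers of 229 to 274 TPM in WT and 278 to 416 TPM in cKO, while none of the 5 immune markers passed. Among these Cd74, an MHC class II chaperone, had every cKO library below every WT library, at 279.9 ± 80.8 and 139 ± 52 CPM (edgeR adjusted p = 0.051). The endothelial marker Pecam1 (edgeR adjusted p = 0.00984) and the smooth muscle markers Acta2 (0.0455) and Myl9 (0.036) were lower, each from under 3 CPM, and the last pair lost their calls on leaving out any of 7 and any of 8 animals. No marker of any list was at 0 in all libraries of a genotype, and the part of these cells in the result was not tested.

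The abundance of the 10 genes spanned a wide range per transcript length. In WT crypts the order of mean TPM was Vil1 (292 ± 35.1), Myo1a (216 ± 39.4), Ezr (134 ± 14.7), Cdhr5 (133 ± 42.5), Pls1 (102 ± 33.6), Ush1c (79.9 ± 8.96), Cdhr2 (69.8 ± 19.2), Myo7b (38 ± 6.98), Anks4b (28.3 ± 6.16) and Espn (12.7 ± 5.81; SD, n = 5 each). Over animals, the ranges of neighbours in this order were separate only between Myo1a and Ezr, between Cdhr2 and Myo7b and between Anks4b and Espn. In cKO crypts Vil1 (467 ± 78.6 TPM) and Myo1a (354 ± 39.5 TPM) remained on top, followed by Cdhr5 (282 ± 48.5), Pls1 (237 ± 49), Ezr (196 ± 34.4), Cdhr2 (168 ± 43.4), Ush1c (95.2 ± 7.89), Myo7b (54.7 ± 8.21), Anks4b (45.5 ± 3.51) and Espn (29.5 ± 5.93). By mean TPM Ezr thus stood below Cdhr5 and Pls1 in cKO, and Ush1c below Cdhr2. Within single libraries, Ezr was above Cdhr5 in only 2 of 5 WT libraries and in 0 of 5 cKO libraries. Ush1c was above Cdhr2 in 3 of 5 WT libraries and in 0 of 5 cKO libraries.

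To compare the genes with each other within a library, the TPM of each was divided by that of Vil1, and the genotypes were compared by the log2 ratio in a two-sided exact permutation test that enumerated the 252 assignments of 5 animals against 5, for which 0.00794 is the smallest possible p. Of the 9 ratios, 4 differed after Benjamini-Hochberg adjustment over the 9. Pls1 rose from 0.343 ± 0.0784 to 0.504 ± 0.0237 of the Vil1 level, Cdhr2 from 0.236 ± 0.0403 to 0.357 ± 0.0455 and Cdhr5 from 0.448 ± 0.0915 to 0.603 ± 0.0165 (SD, n = 5 each). For these 3 genes every cKO library lay above every WT library, with exact p = 0.00794 and adjusted p = 0.0179 for each. Ush1c went the other way and fell from 0.274 ± 0.0154 to 0.207 ± 0.0246 of the Vil1 level, with every cKO library below every WT library (exact p = 0.00794, adjusted p = 0.0179). The least abundant gene, Espn, rose from 0.0423 ± 0.014 to 0.063 ± 0.00431 of Vil1 but did not pass (exact p = 0.0317, adjusted p = 0.0571).

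For the other 4 genes no difference from the change of Vil1 was shown. Ezr stood at 0.458 ± 0.0316 of the Vil1 level in WT and 0.42 ± 0.0215 in cKO (exact adjusted p = 0.0833), Myo1a at 0.734 ± 0.0469 and 0.764 ± 0.0647 (exact adjusted p = 0.518), Myo7b at 0.13 ± 0.0225 and 0.117 ± 0.00586 (exact adjusted p = 0.388) and Anks4b at 0.096 ± 0.0118 and 0.0986 ± 0.0101 (exact adjusted p = 0.667). The ranges of all 4 overlapped between the genotypes. With Ezr in place of Vil1 as the reference, Pls1, Cdhr2, Cdhr5 and Ush1c differed again in the same directions, and Espn passed as well (exact adjusted p = 0.0429). Within the adhesion complex, both protocadherins were thus higher and harmonin lower in cKO relative to either reference. Among WT animals the ratio of Cdhr5 to Vil1 was highest in replicate 2 (0.565) and lowest in replicate 4 (0.326). These libraries also had the highest and lowest enterocyte marker sums. The ratios of Pls1 and Cdhr2 were highest in WT replicate 1 and lowest in WT replicate 4. That of Ush1c was highest in WT replicate 3 and lowest in WT replicate 5. The part of the enterocyte markers in these ratios was not tested.

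**Figure D3:**
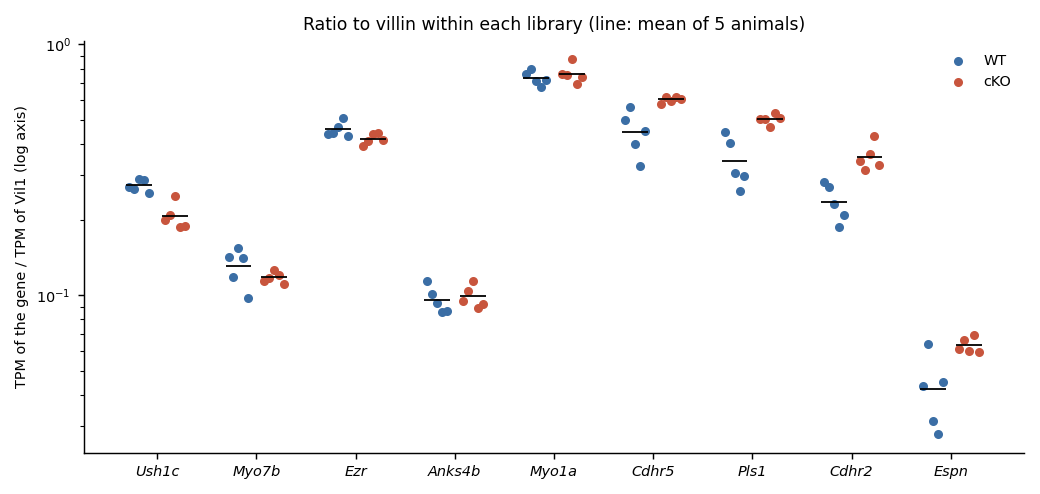
TPM of each of 9 genes divided by the TPM of Vil1 in the same library (log axis), with 1 point per animal for WT (blue) and cKO (red) and a line at the mean of 5 animals, ordered by the change in log2 ratio. Ush1c lies lower in all cKO libraries, Cdhr5, Pls1 and Cdhr2 lie higher, and the other 5 genes overlap between the genotypes.

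Transcript usage was examined through the mean transcript length that RSEM assigned to each gene, which shifts when isoforms of unequal length change their shares. Myo7b, Cdhr2 and Anks4b have 1 annotated transcript each, so their length could not vary. Of the other 7 members none passed limma's test of log2 length at an adjusted p below 0.05, which 0.245% of the 11860 genes with variable length passed. The unadjusted p was below 0.05 for 2 of them. Pls1 had 3154 ± 143 bases in WT and 2962 ± 60.6 bases in cKO (limma adjusted p = 0.256), and Espn, with 20 annotated transcripts, had 1892 ± 112 and 1746 ± 54.9 bases (limma adjusted p = 0.275). The ranges of length overlapped between the genotypes for all 7.

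The wider programme around the brush border was read from 8 lists of 90 genes, of which 81 were tested, 35 were higher and 7 lower in cKO, where 15.6% and 12.7% of all genes tested were. These 42 calls fell to 26 without cKO replicate 5 and to 24 without WT replicates 3 and 4. Among the 3 most abundant genes of each list, Actb, Pdzk1, Calm2, Whrn, Cdc42, Vamp8 and Anpep lost their calls in the latter setting. Losses among the other genes of the lists in that setting are not named here. With library size only, Actb (adjusted p = 0.0842), Calm2 (0.269), Cdc42 (0.0617) and Vamp8 (0.0645) did not pass edgeR's test. The digestive enzymes and transporters that sit in the microvillus membrane had the largest median log2 fold change of the 8 lists, 1.67, and all 10 were higher. Of those outside the naming rule, Lct, Enpep and Slc15a1 lost their calls without cKO replicate 5, and the groups of Lct overlapped in CPM. Lct also lost its call without cKO replicate 4 and Enpep without cKO replicate 1, and both without WT replicate 3 or 5. Alpi and Sis also stand among the enterocyte markers. Alpi, the intestinal alkaline phosphatase, rose from 344 ± 106 to 1221 ± 298 CPM (log2 fold change 1.83, SE 0.24, edgeR adjusted p = 9.81e-04). Sis, the sucrase-isomaltase, rose from 595 ± 318 to 2076 ± 324 CPM (1.80, SE 0.36, edgeR adjusted p = 0.00686). Anpep, aminopeptidase N, went from 813 ± 502 to 2032 ± 562 CPM with overlapping groups (1.32, SE 0.40, edgeR adjusted p = 0.0376), and its call was lost on leaving out any of 7 animals singly. The summed TPM of the 10 structural genes was 91 ± 29.8% of the summed TPM of these enzymes and transporters in WT and 51.8 ± 2.26% in cKO, with every cKO library below every WT library.

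**Figure D4:**
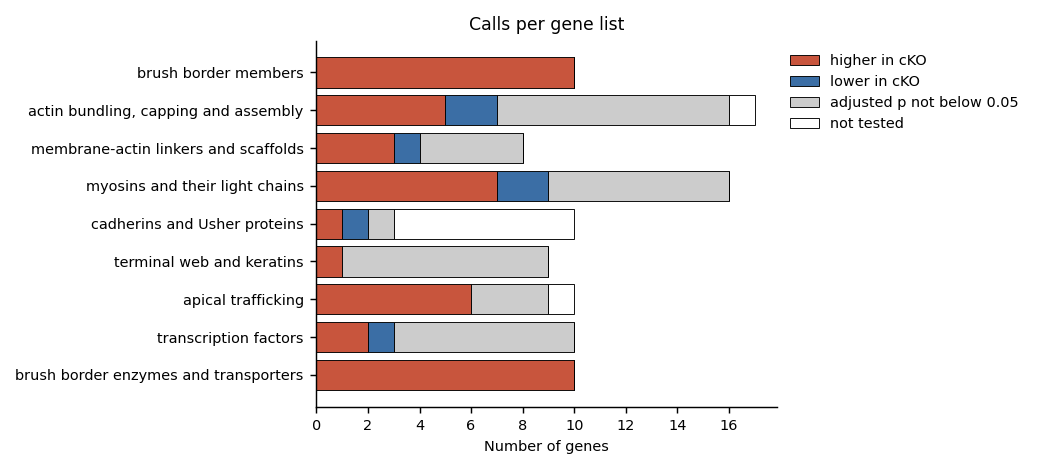
Number of genes per list that were higher (red) or lower (blue) in cKO at an edgeR adjusted p below 0.05, that did not pass (grey) or that were not tested (white). All 10 brush border genes and all 10 enzymes and transporters are higher, whereas the list of terminal web and keratin genes has 1 call among 9.

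Of 16 other actin regulators tested, 5 were higher, 2 lower and 9 did not pass, and the median log2 fold change was 0.05. Over all genes tested 15.6% were higher and 12.7% lower, so the share of lower genes in this list was near that of all genes. Actb, which encodes beta-actin, rose from 1722 ± 296 to 2262 ± 267 CPM with overlapping groups (log2 fold change 0.39, SE 0.12, edgeR adjusted p = 0.0278), a call that was lost on leaving out any of 6 animals. Actg1, the gamma-actin gene, stood at 2206 ± 202 and 2018 ± 117 CPM (edgeR adjusted p = 0.252). Eps8l3, of the EPS8 family of actin-capping and bundling proteins, rose from 188 ± 29.8 to 277 ± 26.1 CPM (0.56, SE 0.11, edgeR adjusted p = 0.00356). The remaining calls of this list fall outside the naming rule and are named after their values were seen. Eps8 (0.50), Eps8l2 (0.56) and Cobl (1.14), the last an actin nucleator of microvilli, were higher on the log2 scale without overlap in CPM. In TPM the ranges of Eps8l2 overlapped, from 45 to 58.9 in WT and from 57.9 to 79.5 in cKO. The family member Eps8l1 stood at 2.76 ± 0.988 and 2.83 ± 1.24 CPM (edgeR adjusted p = 0.946).

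Of 6 paralogs of the bundlers and the linker, likewise named after their values were seen, 2 were lower and 4 did not pass. Among all genes tested 12.7% were lower. Gsn (gelsolin) and Espnl, further relatives in the actin list, are not among the 6. Gsn stood at 14.4 ± 3.52 and 9.97 ± 2.9 CPM and did not pass (edgeR adjusted p = 0.0814), and Espnl was not tested. Pls3, the plastin of many tissues, fell by 0.52 on the log2 scale, from 25.3 ± 5.43 to 17.6 ± 3.27 CPM (edgeR adjusted p = 0.0286), a call lost on leaving out any of 5 animals. Vill, a villin-like gene, fell from 2.5 ± 1.41 to 0.812 ± 0.375 CPM (edgeR adjusted p = 0.0169). Lcp1, the leukocyte plastin, stood at 82.3 ± 17.4 and 61.8 ± 9.39 CPM (edgeR adjusted p = 0.0548), and Avil, the advillin of tuft cells, at 23.6 ± 1.32 and 24.8 ± 2.01 CPM (edgeR adjusted p = 0.495). The ezrin relatives Msn (moesin, 14.4 ± 5.51 and 8.17 ± 4.28 CPM) and Rdx (radixin, 2.47 ± 0.501 and 2.32 ± 1.04 CPM) did not pass (edgeR adjusted p = 0.156 and 0.827). Differences in change between paralogs were not tested.

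Of the 8 membrane linkers and scaffolds, 3 were higher, 1 was lower and 4 did not pass, with a median log2 fold change of 0.32. Over all genes tested 15.6% were higher and 12.7% lower. Slc9a3r1, which encodes the ezrin-binding scaffold EBP50, rose from 195 ± 75 to 418 ± 73.3 CPM (log2 fold change 1.10, SE 0.24, edgeR adjusted p = 0.00886). Pdzk1, a scaffold of apical transporters, went from 25.7 ± 20.0 to 93.6 ± 32.2 CPM with overlapping groups (1.86, SE 0.56, edgeR adjusted p = 0.035), and lost its call without any of 7 animals. Slk, a kinase of ezrin, stood at 101 ± 12.7 and 86.3 ± 4.36 CPM (edgeR adjusted p = 0.0606). Pdzd3 was the other higher gene, at 10.7 ± 4.34 and 19.1 ± 1.85 CPM, with a call lost on leaving out any of 3 animals, and Slc9a3r2, at 2.6 ± 0.297 and 1.45 ± 0.299 CPM, the lower one, both outside the naming rule.

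Among 16 myosins and light chains 7 were higher, 2 were lower and 7 did not pass, with a median log2 fold change of 0.19. The shares over all genes tested were 15.6% higher and 12.7% lower. Calml4, a light chain of the myosin 7b motor, rose from 117 ± 20.1 to 163 ± 10.1 CPM (log2 fold change 0.48, SE 0.10, edgeR adjusted p = 0.006). Calm2, a calmodulin gene, rose from 347 ± 38 to 409 ± 28.7 CPM with overlapping groups (0.24, SE 0.08, edgeR adjusted p = 0.0491), a call lost without any of 8 animals, and its change was 0.17 with effective length as an offset, 0.11 with library size only and 0.08 on both TPM scales, none of which passed. Outside the naming rule, the nonmuscle myosin Myh14 rose from 165 ± 15.4 to 254 ± 29.9 CPM (edgeR adjusted p = 0.0011), and Myo1c (from 71.7 ± 7.22 to 54.9 ± 3.91 CPM, edgeR adjusted p = 0.00511) and Myo10 (from 54.4 ± 8.11 to 45 ± 1.6 CPM, edgeR adjusted p = 0.0436) were the 2 that fell, Myo10 with a call lost without any of 8 animals.

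Of 10 further cadherins and Usher genes only 3 were tested, and Cdhr1, Cdhr3, Cdhr4 and 4 others did not pass the filter on low counts. Cdh17, the liver-intestine cadherin of the lateral membrane, rose from 755 ± 41 to 1115 ± 61.7 CPM (log2 fold change 0.56, SE 0.07, edgeR adjusted p = 5.87e-04). Cdh1, which encodes E-cadherin, stood at 810.0 ± 80.9 and 817 ± 41.5 CPM (0.01, SE 0.08, edgeR adjusted p = 0.925), a difference whose sign changed with the scaling. Whrn, a PDZ protein related to harmonin, fell from 20.9 ± 2.18 to 15.8 ± 2.13 CPM (edgeR adjusted p = 0.0145).

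In the terminal web, the filament layer in which microvilli are rooted, 1 of 9 genes was higher, beside 15.6% of all genes tested (Krt20, a keratin of differentiated cells, outside the naming rule, from 172 ± 104 to 479 ± 100.1 CPM, with a call lost without any of 3 animals), and the median log2 fold change was 0.08. The keratins Krt19 (1275 ± 157 and 1349 ± 139.8 CPM, edgeR adjusted p = 0.569), Krt8 (1819.9 ± 201 and 1902 ± 174 CPM, edgeR adjusted p = 0.641) and Krt18 (356 ± 46.6 and 311 ± 13.5 CPM, edgeR adjusted p = 0.114) did not pass, and the sign of Krt19 and Krt8 changed with the scaling. Of 9 tested genes of apical trafficking, 6 were higher, none was lower and 3 did not pass. Cdc42, a small GTPase of cell polarity, rose from 335 ± 24.1 to 408 ± 22.8 CPM (0.29, SE 0.07, edgeR adjusted p = 0.0103, with a change of 0.16 that did not pass with library size only), Rab11a, a GTPase of recycling endosomes, from 65.5 ± 7.78 to 83.7 ± 3.09 CPM (0.35, SE 0.08, edgeR adjusted p = 0.00755) and Vamp8, a SNARE of vesicle fusion, from 57.5 ± 11.4 to 75.1 ± 3.11 CPM (0.39, SE 0.11, edgeR adjusted p = 0.0249), the last with a call lost without any of 6 animals. Vamp7 of this list was not matched to the files and was not analysed here.

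Of 10 transcription factors known to drive brush border genes, 2 were higher, 1 was lower and 7 did not pass, a share of calls near the 28.3% of all genes tested, and the median log2 fold change was -0.09. Hnf4a stood at 1151 ± 68.2 and 1039.8 ± 44.3 CPM (log2 fold change -0.15, SE 0.07, edgeR adjusted p = 0.12), though in TPM its groups did not overlap (340.1 to 435 against 291 to 327). Hnf4a passed as lower with library size only (-0.28, edgeR adjusted p = 0.00788) and on both TPM scales (-0.27, limma adjusted p = 0.0211 and 0.0214). Elf3 stood at 458 ± 36.4 and 426 ± 37 CPM (edgeR adjusted p = 0.337) and Cdx2 at 173 ± 14.6 and 165 ± 18 CPM (edgeR adjusted p = 0.577). Outside the naming rule, Hnf4g, the HNF4 paralog of the differentiated epithelium, rose from 99.4 ± 17.2 to 206 ± 40.4 CPM (1.05, SE 0.14, edgeR adjusted p = 9.26e-04), and Klf4 from 39.3 ± 3.86 to 64 ± 11.3 CPM (0.70, SE 0.11, edgeR adjusted p = 0.00165). Srf, a regulator of actin genes, fell from 27.7 ± 3.01 to 23.5 ± 1.45 CPM (edgeR adjusted p = 0.0498), a call lost on leaving out any of 9 animals.

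**Figure D5:**
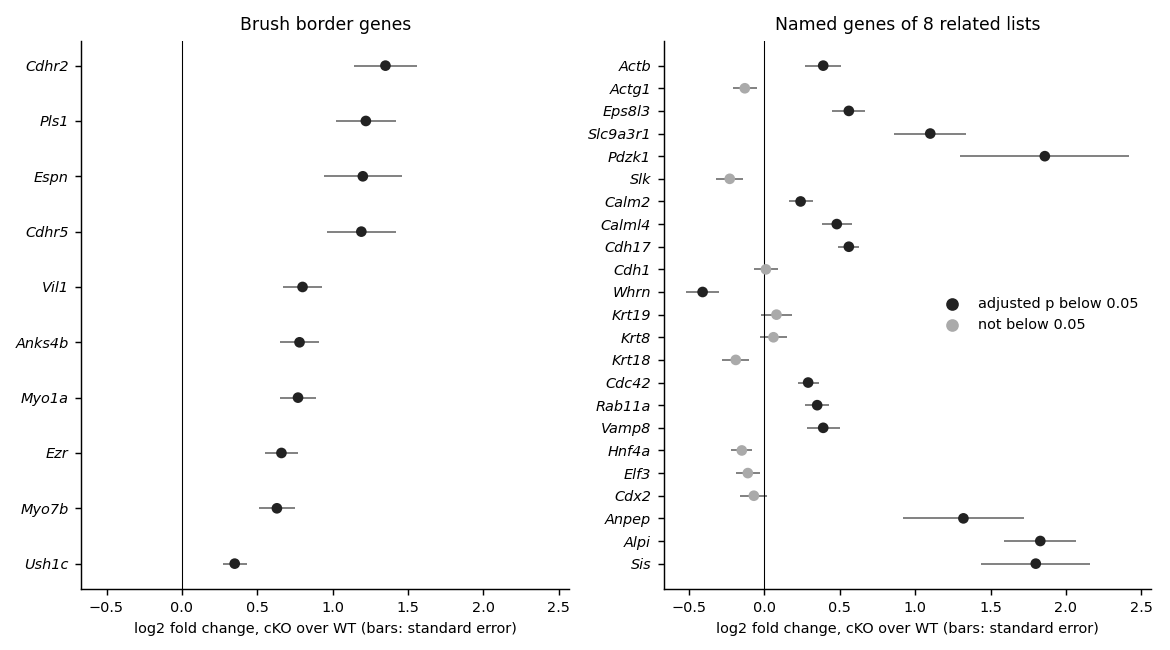
Log2 fold change of cKO over WT with its standard error for the 10 brush border genes (left) and for the named genes of 8 related lists, chosen by abundance (right), black where the edgeR adjusted p is below 0.05 and grey where it is not. The brush border genes range from 0.35 (Ush1c) to 1.35 (Cdhr2), the enzymes Alpi and Sis lie above them at 1.83 and 1.80, and the grey genes include Actg1, Cdh1, the keratins and the transcription factors.

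The mean profile of the 10 genes, that is, their log2 CPM centred per gene and averaged in each library, was -0.30, -0.00, -0.60, -0.82 and -0.57 in WT replicates 1 to 5 and 0.56, 0.32, 0.20, 0.64 and 0.57 in cKO replicates 1 to 5. Among the members, Vil1 and Myo1a lay nearest to this mean over the 10 libraries (root mean square differences of 0.092 and 0.093 on the log2 scale) and Ush1c farthest (0.310), with each member being part of the mean and so drawn toward it. The median over all genes tested was 0.563, and outside the members the 5 nearest genes were Crat (0.072), Tmem19 (0.073), Sec24d (0.074), Phyh (0.078) and Entpd7 (0.086). Crat encodes carnitine acetyltransferase, Sec24d a subunit of the COPII coat and Phyh a peroxisomal hydroxylase, and their log2 fold changes were 0.96, 0.98 and 0.86. All libraries share the contrast of genotype, so likeness in profile is a description.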

How the data were processed

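RNA-seq libraries of jejunal crypts from 5 WT and 5 Arid3a cKO mice were grouped by genotype and numbered as in the labels. Per the study's methods, polyadenylated RNA was sequenced and the authors ran the nf-core/rnaseq pipeline, with alignment by STAR to GRCm38 and quantification by RSEM on Ensembl gene models. The authors deposited, for each library and each of 54838 genes, the expected count, which is not normalized and need not be whole because reads that match several genes are divided, and the TPM, which is scaled for transcript length and library. The deposited FPKM values were not used. The deposited transcript and effective lengths are means over the isoforms of a gene, weighted by their estimated shares. The strand setting of the counting was not given in the sources used here.

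Expected counts were rounded and tested in R 4.3.3 with edgeR 4.0.16 (filterByExpr with a minimum count of 10 and a minimum total of 15, TMM normalization, robust quasi-likelihood test, Benjamini-Hochberg adjustment over 14719 genes, threshold 0.05). CPM are on TMM-normalized library sizes, with totals of 27050455 to 28152743 counts in WT and 28314069 to 31053622 in cKO, and counts without a gene symbol, 0.0193% of the total, stayed in. Transcript lengths were tested on the log2 scale with limma 3.58.1 over 11860 genes. Ratios to Vil1 were compared by exact permutation. Gene positions are from GENCODE for GRCm38, and promoters from RefSeq. The scripts were tested on simulated data. Members and lists were chosen with earlier results of these data known. Named genes were the members, Arid3a, the 3 genes of each related list with the highest mean TPM and the 5 genes with the nearest profile, and others are marked. Some genes that meet the rule or stand in a list are not reported here by name, though they stay in the counts, sums and tests. Alternatives were no filter on low counts, library size only, RLE factors, DESeq2 1.42.0, a filter of at least 10 counts in every library, effective length as an offset, log2(TPM + 1) and log2(TPM + 0.1) with limma, the replicate block, each animal left out in turn, and WT replicates 3 and 4 left out together, which was chosen after seeing the data. Separate animals were taken as replicates.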

Additional observations from a re-analysis of the deposited data

Results flagged for a closer look

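In 124 groups of 5 libraries, the highest or lowest value was compared with its neighbour by Dixon's criterion at 95%, and 2 stood apart, where chance alone gives about 1 in 20. Rab11a, a small GTPase of apical recycling, stood at 78.3 CPM in cKO replicate 4 against 84.1 to 85.9 CPM in the other cKO libraries, all above the WT range of 56.7 to 73.9 CPM. The summed level of 5 stroma and vessel markers was 51.8 TPM in cKO replicate 4 against 9.29 to 19.7 TPM in the other cKO libraries, and this library was also the highest cKO library for 6 of the 10 brush border genes. No member of the brush border set had a library standing apart by this criterion.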

How the results depend on the processing

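Over 20 alternatives to the reported setting, all 10 brush border genes stayed higher in direction, and 199 of 200 combinations of gene and alternative kept the side of the threshold. The exception was Ush1c without WT replicates 3 and 4 (adjusted p = 0.0564), which left 9 genes called. The same alternative, chosen after seeing the data, gave 2143 genes called among all genes in place of 4167 and 24 in the related lists in place of 42. Leaving out 1 animal at a time gave 26 to 44 genes called in the related lists, the lowest without cKO replicate 5, and 3007 to 4684 over all genes. DESeq2 called 4777 genes, and the log2 fold change of Ush1c, the smallest, was 0.22 with library size only (adjusted p = 0.0454), which moved the median of all genes from -0.03 to -0.16. The number of members without overlap was 7 with library size only and 8 in TPM, for which no share over all genes is given. Arid3a has no value with at least 10 counts in every library, since it fell below that filter. Same-numbered animals did not deviate together (correlations of -0.157, -0.036, 0.131, -0.141 and -0.152). These correlations gave no sign that the numbers pair the animals, but they cannot exclude a pairing. With the replicate block, 3052 genes, all 10 members and 32 genes of the related lists were called, Arid3a had a log2 fold change of -1.94, and 0 ratios to Vil1 differed in place of 4, because sign changes within 5 pairs cannot give an exact p below 0.0625. Directions turned for 3 related genes that never passed. Cdh1 turned to -0.12 with library size only, to -0.08 in log2(TPM + 1) and -0.08 in log2(TPM + 0.1), and ranged from -0.03 to 0.06 on leaving out 1 animal, with -0.01 without cKO replicate 1 and -0.00 without WT replicate 1. Krt19 turned to -0.05 with library size only and to -0.03 in both TPM scales. Krt8 turned to -0.06 with library size only, -0.03 in both TPM scales and -0.01 without WT replicates 3 and 4. For the 24 most abundant related genes (3 of each list), 398 of 480 combinations kept their call, 57 lost it, 12 gained it (Hnf4a, Slk, Krt18, Elf3 and Actg1, all lower, with Hnf4a at -0.28 with library size only and -0.27 in both TPM scales) and 13 turned. Depth did not limit the members, each of which had over 10 CPM in every library.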
